A study of Mus musculus with 17 samples.

Results

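The autophagy genes described here are 10 genes of mouse autophagy, Ulk1, Becn1, Map1lc3a, Map1lc3b, Gabarapl1, Atg4b, Sqstm1, Bnip3, Bnip3l and Ctsl. They were chosen by gene symbol in the array's probe annotation, and they were measured by 13 of the 25697 probes, or 10 of the 16593 named genes. Ulk1, Becn1 and Map1lc3a had 2 probes each and the others 1. The study measured gene expression in tibialis anterior, a leg muscle, of male mice aged 8 weeks, on 17 bead arrays with 1 array per sample. All muscles were taken at 3 days. In 1 experiment, muscles of C57BL/6 mice were transfected with a p53 plasmid (4 arrays) or a control plasmid (4 arrays). In the other, hindlimbs were immobilized in p53 mKO mice (3 arrays) and in their littermate controls (3 arrays), and mobile hindlimbs of littermate controls were taken too (3 arrays). The 17 arrays include no mobile p53 mKO group. The labels do not spell out mKO, which the study uses for mice that lack p53 in skeletal muscle, and they give neither the promoter that drives the deletion nor that of the plasmid. Muscles of both sides were harvested, and the labels do not say which arrays share a mouse, so the p-values weigh array-to-array spread, part of which may be technical.

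Autophagy encloses cytoplasm in a double membrane, the autophagosome, and delivers it to the lysosome for breakdown. The kinase Ulk1 starts the process, and Becn1 belongs to the lipid kinase complex that marks the new membrane. The small ubiquitin-like proteins of the LC3 and GABARAP families (Map1lc3a, Map1lc3b, Gabarapl1) are trimmed by the protease Atg4b and attached to that membrane, where they hold cargo receptors such as Sqstm1, also called p62, and the mitochondrial receptors Bnip3 and Bnip3l. Ctsl is cathepsin L, a protease of the lysosome. In skeletal muscle several of these genes are known to be induced by FoxO factors, the forkhead proteins, during wasting, and TFEB, a factor that binds E-boxes, induces lysosome genes. The protein p53 is a transcription factor known both to induce and, from the cytoplasm, to restrain autophagy in other cell types.

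RefSeq promoter windows (GRCm38.p6) were matched for 7 of the 10 genes. The 250 bases upstream of the start site are shown for 4 members that were lower with the p53 plasmid. These are the kinase Ulk1, Map1lc3b and Gabarapl1 of the LC3 and GABARAP families, and the cargo receptor Sqstm1. Each window is read 5′ to 3′ on the gene's own strand, with capitals for motif matches. Ulk1 lies at chr5:110810082-110810331 on the minus strand, Map1lc3b at chr8:121590188-121590437 on the plus strand, Gabarapl1 at chr6:129532942-129533191 on the plus strand and Sqstm1 at chr11:50210821-50211070 on the minus strand.
Ulk1: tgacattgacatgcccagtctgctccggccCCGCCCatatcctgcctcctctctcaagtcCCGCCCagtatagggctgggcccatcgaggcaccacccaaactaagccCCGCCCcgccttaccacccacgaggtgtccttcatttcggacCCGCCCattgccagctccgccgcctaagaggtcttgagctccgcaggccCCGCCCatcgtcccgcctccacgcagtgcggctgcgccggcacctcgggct
Map1lc3b: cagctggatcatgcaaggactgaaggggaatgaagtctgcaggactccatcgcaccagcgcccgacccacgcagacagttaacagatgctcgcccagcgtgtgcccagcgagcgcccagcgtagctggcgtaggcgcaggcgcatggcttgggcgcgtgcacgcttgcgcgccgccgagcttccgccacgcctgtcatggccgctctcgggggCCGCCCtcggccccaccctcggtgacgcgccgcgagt
Gabarapl1: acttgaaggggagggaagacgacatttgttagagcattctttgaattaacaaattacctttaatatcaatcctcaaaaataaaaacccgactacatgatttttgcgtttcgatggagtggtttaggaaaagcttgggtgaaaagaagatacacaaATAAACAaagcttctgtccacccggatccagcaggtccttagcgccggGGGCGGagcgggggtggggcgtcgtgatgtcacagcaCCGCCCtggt
Sqstm1: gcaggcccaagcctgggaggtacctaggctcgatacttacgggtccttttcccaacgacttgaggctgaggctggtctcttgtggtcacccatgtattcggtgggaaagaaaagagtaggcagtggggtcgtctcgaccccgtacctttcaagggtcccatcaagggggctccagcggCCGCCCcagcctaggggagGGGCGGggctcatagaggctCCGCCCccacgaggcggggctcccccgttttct

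The letters searched on both strands were GTAAACA or ATAAACA for the forkhead motif, CACGTG for the E-box, GGGCGG for the GC box and the p53 half-site by its usual consensus. Of 32807 windows of this length, 7.1% held a forkhead match, 6.02% an E-box, 32.7% a GC box and 7.13% a p53 half-site. Ulk1 had 5 GC boxes, Sqstm1 3, Gabarapl1 2 and Map1lc3b 1. Gabarapl1 had the 1 forkhead match of the 7 windows, 95 bases before the start, and Bnip3 and Ctsl had 1 E-box each. None of the 7 windows held a p53 half-site. The GC box and the second forkhead form were added after the sequences had been seen, and a match describes letters, not a bound site.

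The deposited values were on a log scale, taken as log2, and ran from 8.21 to 15.61 with array medians from 8.48 to 8.5. A floor near 8.21 compresses the differences of dim probes. Arrays of a group correlated with each other at 0.969 to 0.997 over the 16036 probes tested for immobilization. Trp53, the gene of p53, had 0 named probes among those used, so neither the deletion nor the plasmid could be checked at its target. All 8 muscle markers had a probe, and their summed linear signal was 275749 to 297043 with the p53 plasmid, 301031 to 306538 with the control plasmid, 304135 to 328593 in p53 mKO immobile, 294875 to 318703 in control immobile and 309830 to 325947 in control mobile muscle. The summed signal of 10 macrophage markers differed far more. It was 70577 to 83141 with the p53 plasmid and 27073 to 34289 with the control plasmid, and 11743 to 21778 in p53 mKO immobile, 11353 to 45793 in control immobile and 8718 to 9994 in control mobile muscle. The macrophage markers Cd68 and Csf1r had no named probe here. In whole muscle, fewer cells of a type and less RNA per cell cannot be told apart. The arrays numbered 3 of both immobile groups stood apart from the others of their groups, so the main differences of immobile muscle are also given without both. Control immobile array 1 stood apart in its macrophage sum, 45793 against 18792 and 11353 on arrays 2 and 3. It was left out only in the fits without 1 array.

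The p53 plasmid was accompanied by lower signal of 6 of the 10 member genes, among them Becn1 on only 1 of its probes. Of 12 probes tested, 8 fell and 1 rose relative to the control plasmid (limma, adjusted p under 0.05 with Benjamini-Hochberg over all probes). The 8 probes belong to 6 genes, Ulk1, Becn1, Map1lc3a, Map1lc3b, Gabarapl1 and Sqstm1, and the probe that rose was that of Bnip3l. Over all 15426 probes tested, 28.4% fell and 29.7% rose, so that 8 of 12 stands above the share of all probes and 1 of 12 below it. The median log2 difference was -0.43 over the 12 probes and 0 over all probes tested. For each of the 9 probes called, the 4 p53 plasmid arrays did not overlap the 4 control plasmid arrays (8 lower and 1 higher), which over all probes tested was so for 26.4% lower and 27.7% higher. These are the same probes and arrays as in the calls, so the lack of overlap adds no separate support. Immobilization of control muscle had fewer calls. Of 13 probes tested, 2 rose (Gabarapl1 and Sqstm1) and 0 fell, against 4.08% and 6.06% of 16036 probes. At an unadjusted p under 0.05, 4 of the 13 were higher and 0 lower, against 11.9% and 12.6% of all probes, and the median over the 13 was 0.11.

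Between p53 mKO immobile and control immobile muscle, 0 of the 13 probes passed in either direction by limma, and neither did any other probe (0% of 16036 in each direction). At an unadjusted p under 0.05 there were 473 probes over all, fewer than the 801.8 that the threshold alone allows, and 1 of the 13, that of Map1lc3b, was higher, against 1.89% higher and 1.06% lower of all probes. Same-numbered arrays of these groups deviated together, and with the replicate block, a term for array number, the count stayed at 0. The labels give no pairing. It was taken from these same data, so the block is no independent check. In p53 mKO immobile muscle against control mobile muscle, 3 of the 13 rose (Map1lc3b, Gabarapl1 and Sqstm1) and 0 fell, against 3.5% and 5% of all probes. At an unadjusted p under 0.05, 4 of the 13 were higher and 1 lower, Map1lc3a ILMN_2686183, against 10.7% and 11.8% of all probes. Without both immobile arrays numbered 3 the counts of calls stayed at 2 and 0 in control immobile, and 3 and 0 in p53 mKO immobile, against control mobile muscle. Over all 16296 probes tested in that setting, 930 rose and 1406 fell in control immobile muscle, against 655 and 971 in the main fit. In p53 mKO immobile muscle 690 rose and 1022 fell, against 561 and 802. The comparison of p53 mKO immobile with control mobile muscle changes genotype and immobilization together. Without mobile p53 mKO arrays these cannot be told apart. This comparison also shares its mobile arrays with that of the control immobile muscle, so the 2 comparisons are not independent.

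**Figure D1:**
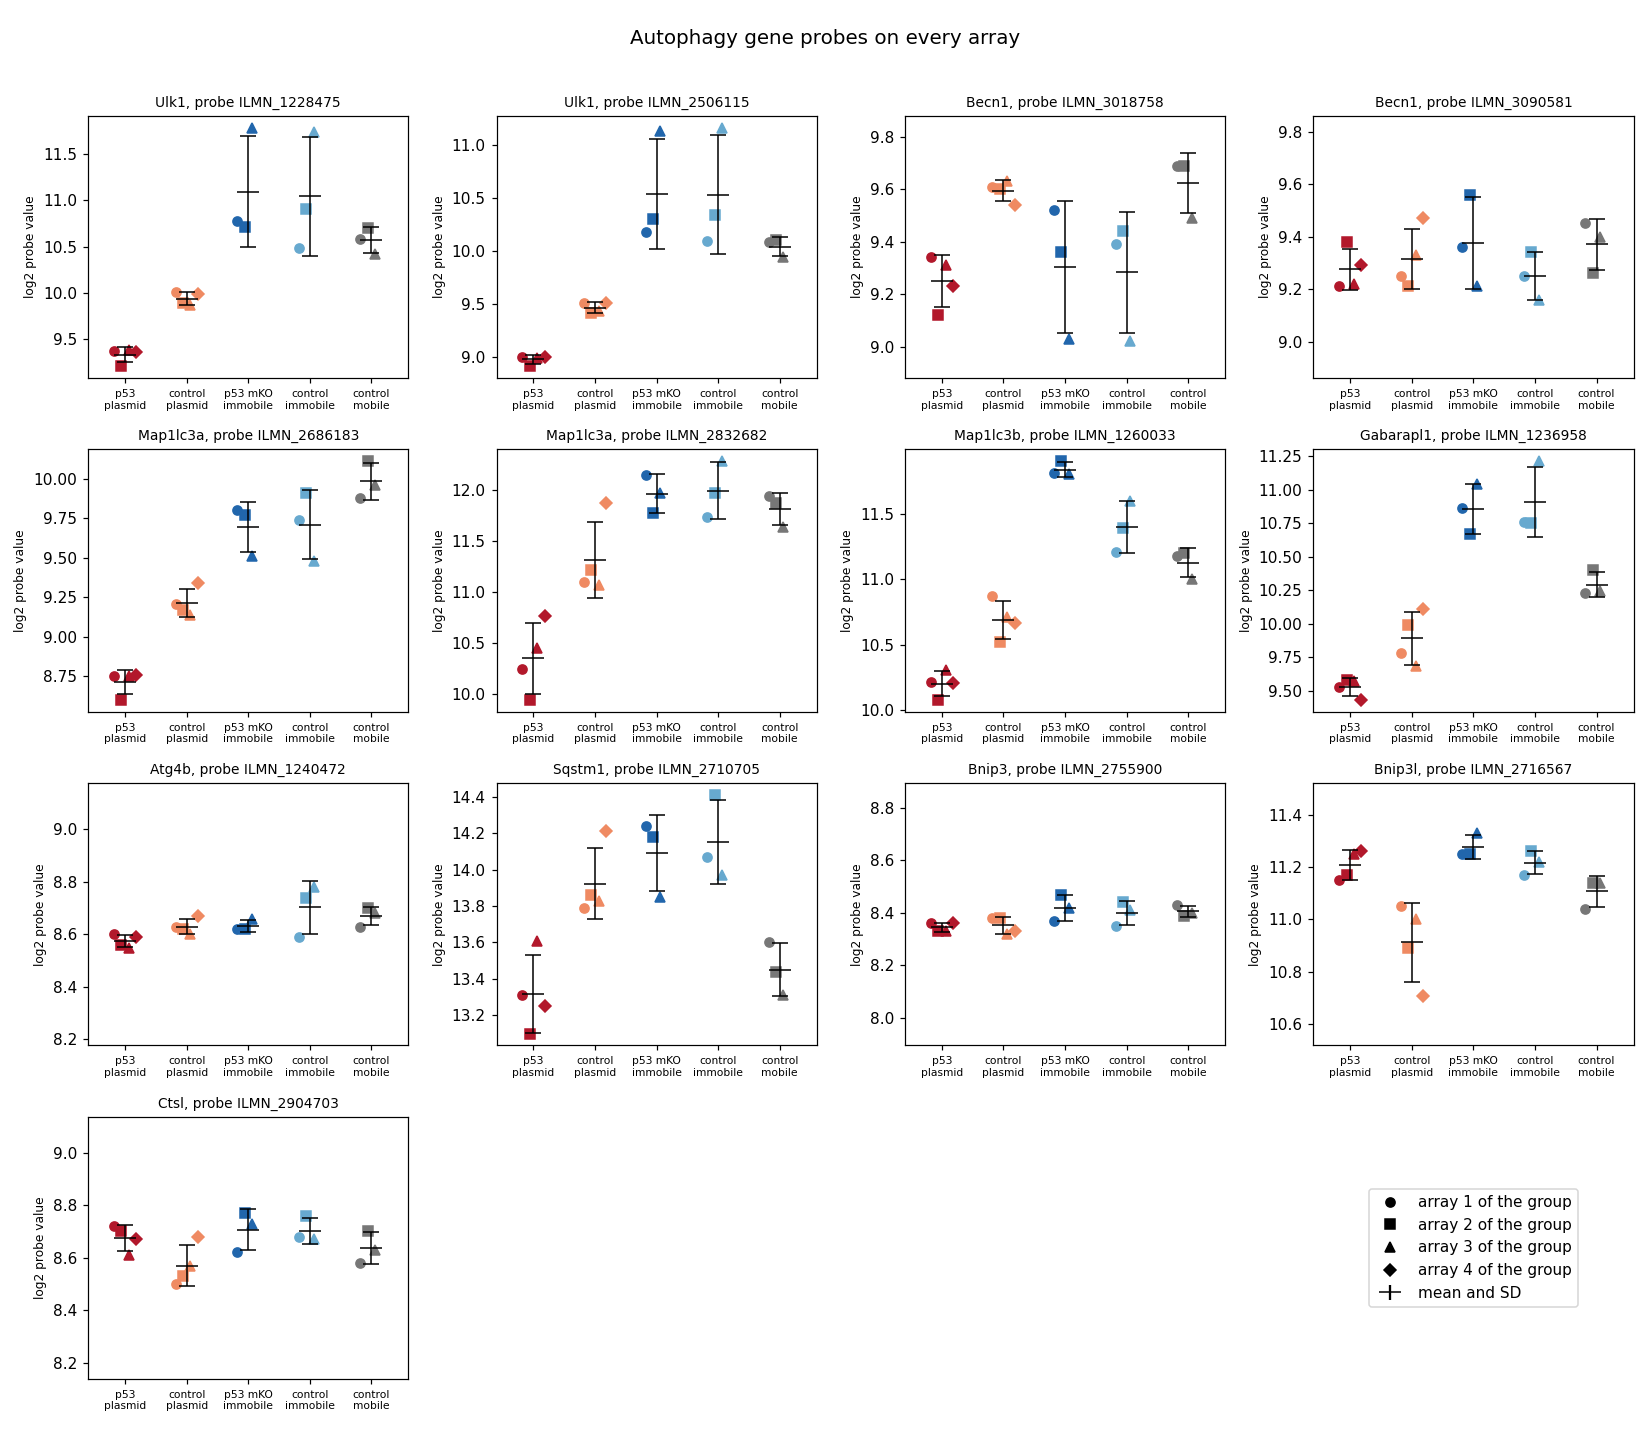
Log2 values of the 13 autophagy gene probes on every array, by group, with the mean and SD as bars and a symbol for the array number within its group. The p53 plasmid arrays of Ulk1 sit between 9.21 and 9.39 on probe ILMN_1228475, below the control plasmid arrays at 9.87 to 10.01, while the immobile arrays numbered 3 lie at 11.78 (p53 mKO) and 11.74 (control).

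Ulk1, the kinase that starts autophagosome formation, showed the widest range of group means among the 13 probes, 1.75 log2 units. Its probe ILMN_1228475 read 9.38, 9.21, 9.39 and 9.37 with the p53 plasmid and 10.01, 9.89, 9.87 and 9.99 with the control plasmid. It read 10.78, 10.71 and 11.78 in p53 mKO immobile muscle, 10.48, 10.90 and 11.74 in control immobile muscle and 10.58, 10.70 and 10.42 in control mobile muscle. Every p53 plasmid array was thus below every control plasmid array, and in each immobile group the array numbered 3 was the highest. The log2 difference with the p53 plasmid was -0.60 ± 0.05 SE (1.52-fold lower, adjusted p = 3.74e-05 by limma). The second probe, ILMN_2506115, read 9.0, 8.91, 8.99 and 9.0 with the p53 plasmid and 9.51, 9.41, 9.43 and 9.51 with the control plasmid, a difference of -0.49 ± 0.03 SE (adjusted p = 2.03e-05 by limma). Subtracting a background level before taking logs, which widens the differences of dim probes, gave -0.97 and -0.99 for the Ulk1 probes. Both missed the threshold when all 17 arrays set the spread, with adjusted p = 0.0559 and 0.0697 by limma.

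Ulk1 was not called after immobilization. On ILMN_2506115 it read 10.18, 10.30 and 11.13 in p53 mKO immobile and 10.09, 10.34 and 11.16 in control immobile muscle, against 10.08, 10.10 and 9.94 in control mobile muscle, again with the arrays numbered 3 highest in the immobile groups. The log2 difference of control immobile minus control mobile was 0.47 ± 0.37 SE on ILMN_1228475 and 0.49 ± 0.32 SE on ILMN_2506115 (adjusted p = 0.495 and 0.402 by limma), and the groups overlapped. Without both immobile arrays numbered 3, Ulk1 differed by 0.12 and 0.18 on these probes. Between p53 mKO and control immobile muscle the difference on ILMN_1228475 was 0.05, with a 95% interval from -0.80 to 0.90, which leaves sizeable changes in either direction undetectable with 3 arrays a group. From the highest mean to the lowest, the groups ran p53 mKO immobile (11.09 ± 0.60 SD, n = 3), control immobile (11.04 ± 0.64, n = 3), control mobile (10.57 ± 0.14, n = 3), control plasmid (9.94 ± 0.07, n = 4) and p53 plasmid (9.34 ± 0.09, n = 4). Of the neighbours in that order, the p53 and control plasmid groups passed the test. The control plasmid group was 0.63 ± 0.26 SE below the mobile group (adjusted p = 0.0781 by limma) and did not pass.

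Becn1, the Beclin 1 subunit of the class III lipid kinase complex, had probes that differed from each other. Probe ILMN_3018758 read 9.34, 9.12, 9.31 and 9.23 with the p53 plasmid, all below the 9.61, 9.60, 9.63 and 9.54 of the control plasmid. It fell by 0.35 on the log2 scale (SE 0.05, adjusted p = 0.000441 by limma). Probe ILMN_3090581 read 9.21, 9.38, 9.22 and 9.29 with the p53 plasmid and 9.25, 9.21, 9.33 and 9.47 with the control plasmid. These overlapped, and the difference was -0.04, with a 95% interval from -0.18 to 0.10. With background subtraction the difference of ILMN_3018758 was -0.62. In immobile muscle ILMN_3018758 read 9.52, 9.36 and 9.03 in p53 mKO and 9.39, 9.44 and 9.02 in control mice, against 9.69, 9.69 and 9.49 in control mobile muscle. The array numbered 3 was the lowest of each of these 3 groups, and all control immobile arrays were below all mobile arrays. The difference of control immobile minus control mobile, -0.34 ± 0.15 SE, did not pass (adjusted p = 0.212 by limma), and was -0.21 without both immobile arrays numbered 3 (adjusted p = 0.139).

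Map1lc3a, which encodes an LC3 protein, had the largest log2 difference of the 12 tested probes with the p53 plasmid. Probe ILMN_2832682 read 10.24, 9.94, 10.45 and 10.76 with the p53 plasmid and 11.10, 11.21, 11.07 and 11.87 with the control plasmid. The array numbered 4 was the highest of both groups, and the groups did not overlap. The difference was -0.97 ± 0.22 SE (1.95-fold lower, adjusted p = 0.00564 by limma). Probe ILMN_2686183 read 8.75, 8.60, 8.75 and 8.76 with the p53 plasmid and 9.21, 9.17, 9.14 and 9.34 with the control plasmid, a difference of -0.50 ± 0.05 SE (adjusted p = 0.000103 by limma). Its p53 plasmid values lay near the floor of the arrays, which limits how low a value can read, and with background subtraction the difference was -1.28. Neither probe passed in immobile muscle. ILMN_2832682 read 12.15, 11.77 and 11.97 in p53 mKO immobile and 11.73, 11.97 and 12.28 in control immobile muscle, against 11.94, 11.87 and 11.64 in control mobile muscle. ILMN_2686183 read 9.80, 9.77 and 9.51 in p53 mKO immobile and 9.74, 9.91 and 9.48 in control immobile muscle, against 9.88, 10.11 and 9.96 in control mobile muscle. For control immobile minus control mobile the log2 differences were 0.18 ± 0.15 SE and -0.27 ± 0.12 SE, and the arrays of the groups overlapped on each probe. Without both immobile arrays numbered 3 they were 0.03 and -0.16 (adjusted p = 0.913 and 0.25 by limma).

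Map1lc3b encodes LC3B, the form most used as a marker of autophagosomes. It read 10.22, 10.08, 10.31 and 10.21 with the p53 plasmid and 10.87, 10.52, 10.71 and 10.67 with the control plasmid. The highest p53 plasmid array was below the lowest control plasmid array, and the log2 difference was -0.49 ± 0.08 SE (1.40-fold lower, adjusted p = 0.000749 by limma). Its values were 11.81, 11.90 and 11.80 in p53 mKO immobile muscle, 11.21, 11.39 and 11.60 in control immobile muscle and 11.18, 11.20 and 11.0 in control mobile muscle. These 3 groups did not overlap, with the p53 mKO arrays highest and the mobile arrays lowest. Against control mobile muscle Map1lc3b rose in p53 mKO immobile muscle by 0.71 ± 0.10 SE (1.64-fold, adjusted p = 0.00532 by limma). In control immobile muscle its difference of 0.27 ± 0.10 SE from mobile muscle did not pass (adjusted p = 0.134 by limma). The difference of p53 mKO immobile minus control immobile, 0.44 ± 0.10 SE with a 95% interval from 0.21 to 0.67, had an unadjusted p = 0.00231 and an adjusted p = 1 in the limma fit, and an adjusted p = 0.684 with the replicate block. This was the lowest unadjusted p of the 13 probes in that comparison. Without both immobile arrays numbered 3, Map1lc3b differed by 0.73 for p53 mKO immobile against mobile muscle (adjusted p = 0.00558 by limma), by 0.17 for control immobile against mobile muscle (0.221) and by 0.56 between the immobile groups (0.77).

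Gabarapl1, of the GABARAP family, moved in opposite directions in the 2 experiments. It read 9.53, 9.58, 9.57 and 9.43 with the p53 plasmid, below the 9.78, 9.99, 9.68 and 10.11 of the control plasmid. Its log2 difference was -0.36 ± 0.09 SE (adjusted p = 0.00884 by limma). In immobile muscle it read 10.86, 10.67 and 11.04 in p53 mKO and 10.76, 10.75 and 11.21 in control mice, all above the 10.23, 10.40 and 10.24 of control mobile muscle. The 2 immobile groups overlapped each other. Gabarapl1 rose by 0.62 ± 0.14 SE in control immobile muscle (1.53-fold, adjusted p = 0.031 by limma) and by 0.57 ± 0.14 SE in p53 mKO immobile muscle (1.48-fold, adjusted p = 0.0475 by limma), each against control mobile muscle. The call in control immobile muscle was lost without mobile array 1, 2 or 3 (adjusted p = 0.101, 0.0768 and 0.110) and with the replicate block (0.113), and it held without both immobile arrays numbered 3 (0.47, adjusted p = 0.0128). The call in p53 mKO immobile muscle was lost without any 1 of the mobile or p53 mKO arrays, at an adjusted p of up to 0.155, and held without both arrays numbered 3 (0.48, adjusted p = 0.0147). With background subtraction the p53 plasmid difference was -0.56.

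Atg4b, the protease that trims LC3, hardly varied. Its values lay between 8.55 and 8.78 on all 17 arrays, the 54th to 64th percentile of their arrays, close to the floor. It read 8.60, 8.56, 8.55 and 8.59 with the p53 plasmid and 8.63, 8.62, 8.60 and 8.67 with the control plasmid. Atg4b differed by -0.06 ± 0.02 SE (adjusted p = 0.0835 by limma), and the groups met at 8.60. In the immobilization experiment its log2 differences ran from -0.07 to 0.03 with no call.

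Sqstm1, the cargo receptor p62, likewise fell with the p53 plasmid and rose after immobilization. It read 13.31, 13.10, 13.61 and 13.25 with the p53 plasmid and 13.79, 13.86, 13.83 and 14.21 with the control plasmid. No array overlapped, and the log2 difference was -0.61 ± 0.13 SE (1.52-fold lower, adjusted p = 0.00341 by limma). In immobile muscle it read 14.24, 14.18 and 13.85 in p53 mKO and 14.07, 14.41 and 13.97 in control mice, against 13.60, 13.44 and 13.31 in control mobile muscle. The immobile groups overlapped each other and lay above the mobile arrays. Sqstm1 rose by 0.70 ± 0.14 SE in control immobile muscle (1.62-fold, adjusted p = 0.0211 by limma) and by 0.64 ± 0.14 SE in p53 mKO immobile muscle (1.56-fold, adjusted p = 0.0335 by limma), against control mobile muscle. In control immobile muscle the call was lost without mobile array 2 or 3 (adjusted p = 0.0849 and 0.0831) and with the replicate block (0.0708), and held without both immobile arrays numbered 3 (0.79, adjusted p = 0.0101). In p53 mKO immobile muscle it was lost without mobile array 1, 2 or 3 or p53 mKO array 1 or 2, at an adjusted p of up to 0.126, and held without both arrays numbered 3 (0.76, adjusted p = 0.0141).

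Bnip3l, a receptor on mitochondria also called Nix, was the 1 member that rose with the p53 plasmid. It read 11.15, 11.17, 11.25 and 11.26 with the p53 plasmid and 11.05, 10.89, 11.0 and 10.71 with the control plasmid. Every p53 plasmid array was above every control plasmid array, and the difference was 0.30 ± 0.07 SE (1.23-fold, adjusted p = 0.00745 by limma). In immobile muscle Bnip3l read 11.25, 11.25 and 11.33 in p53 mKO and 11.17, 11.26 and 11.22 in control mice, against 11.04, 11.14 and 11.14 in control mobile muscle. The immobile arrays were all above the mobile ones, but the differences of 0.17 ± 0.04 SE for p53 mKO (adjusted p = 0.0576) and 0.11 ± 0.04 SE for control immobile muscle (adjusted p = 0.178) did not pass by limma. Without both immobile arrays numbered 3 they were 0.14 (adjusted p = 0.131) and 0.11 (adjusted p = 0.2).

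Bnip3, its close relative, and Ctsl, the lysosomal protease, were too dim to inform much. The Bnip3 probe lay between 8.32 and 8.47, the 13th to 49th percentile of the arrays, and was not tested between the plasmid groups. Its means were 8.35 ± 0.02 with the p53 plasmid and 8.35 ± 0.03 with the control plasmid (SD, n = 4 each). Ctsl read 8.72, 8.70, 8.61 and 8.67 with the p53 plasmid and 8.5, 8.53, 8.57 and 8.68 with the control plasmid, which overlapped through control plasmid array 4. Its difference of 0.11 ± 0.04 SE did not pass (adjusted p = 0.0693 by limma), and it did without control plasmid array 4 (0.14, adjusted p = 0.0102). Among the immobile and mobile groups the log2 differences ran from -0.01 to 0.02 for Bnip3 and from 0.0033 to 0.07 for Ctsl, with no call.

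**Figure D2:**
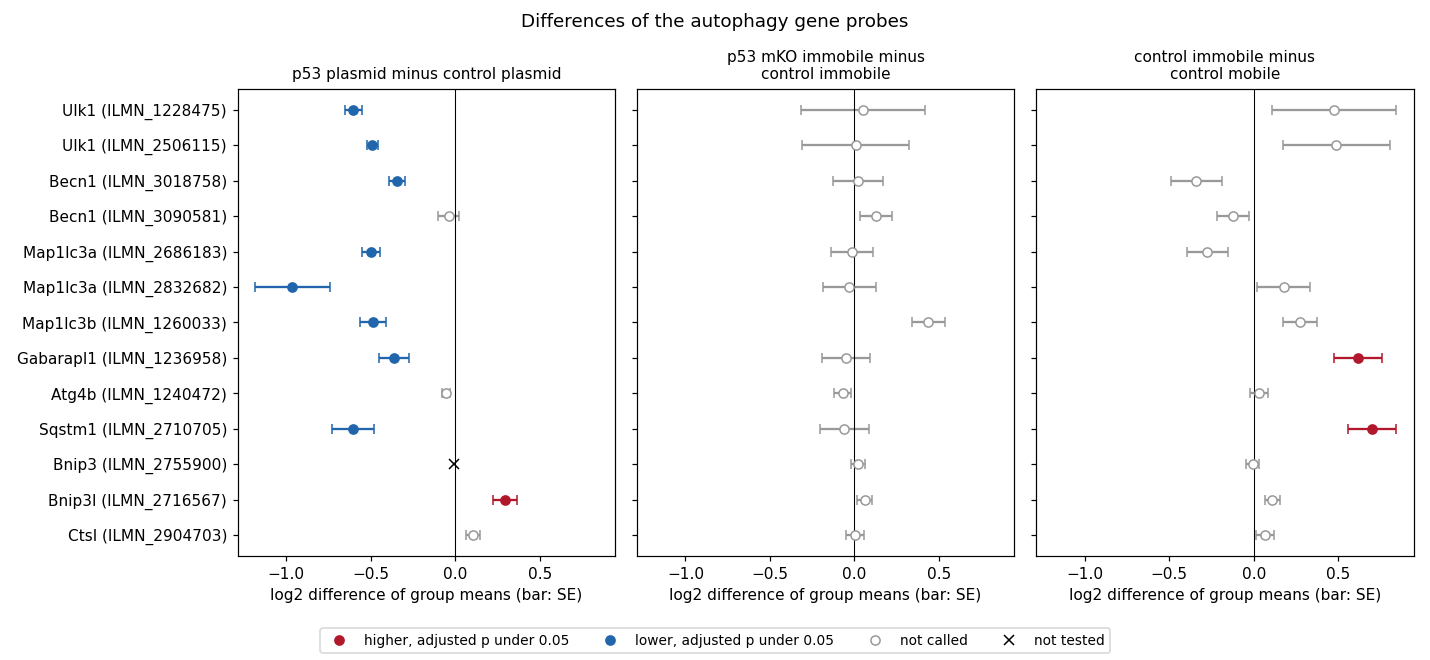
Log2 differences of the 13 probes in 3 comparisons, with the SE as bars and filled points for an adjusted p under 0.05 by limma. With the p53 plasmid 8 probes are filled below 0 and 1 above, between p53 mKO and control immobile muscle none is filled, and after immobilization of control muscle Gabarapl1 and Sqstm1 are filled above 0.

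Whether the immobilization difference (control immobile minus control mobile) and the p53 plasmid difference (p53 plasmid minus control plasmid) themselves differed was tested as 1 contrast over all 17 arrays, since the 2 share no arrays. Of the 13 probes, 5 were higher, that is with the immobilization difference above the plasmid difference, and 0 lower, against 9.24% and 11.6% of 17107 probes. At an unadjusted p under 0.05 the counts were 6 and 0, against 13.9% and 19.1% of all probes. The 5 called were Sqstm1 (1.31 ± 0.20 SE, adjusted p = 0.000885), Map1lc3b (0.76 ± 0.13 SE, adjusted p = 0.00146), Gabarapl1 (0.98 ± 0.17 SE, adjusted p = 0.00182), Map1lc3a on ILMN_2832682 (1.14 ± 0.30 SE, adjusted p = 0.0158) and Ulk1 on ILMN_2506115 (0.98 ± 0.32 SE, adjusted p = 0.0422), all by limma. The call of Ulk1 is the weakest, lost in 14 of 21 other settings, the leaving out of single arrays among them, at an adjusted p of up to 0.0937. The other Ulk1 probe, with 1.08 ± 0.37 SE, had an adjusted p = 0.0533. Without both immobile arrays numbered 3, 7 probes were called, with Ulk1 on ILMN_1228475 (0.73, adjusted p = 0.00418) and Map1lc3a on ILMN_2686183 (0.34, adjusted p = 0.0294) added. Over all 17410 probes tested in that setting, 1656 were higher and 1894 lower, against 1581 and 1984 in the main fit. Becn1 on ILMN_3018758 differed by 0.01 ± 0.16 SE, its differences being -0.35 with the p53 plasmid and -0.34 after immobilization.

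The 2 control groups were not at the same level. In control plasmid against control mobile muscle, 1 of the 13 probes was higher and 4 were lower, against 14.3% and 20.1% of 17107 probes, in a fit where experiment and transfection cannot be told apart. Sqstm1 was higher (0.47 ± 0.14 SE, adjusted p = 0.0204). Lower were Map1lc3a on ILMN_2686183 (-0.77 ± 0.10 SE, adjusted p = 4.02e-05), Map1lc3b (-0.43 ± 0.09 SE, adjusted p = 0.00228), Gabarapl1 (-0.40 ± 0.12 SE, adjusted p = 0.0213) and Bnip3l (-0.19 ± 0.06 SE, adjusted p = 0.0307), all by limma. The Sqstm1 call was lost without mobile array 2 or 3 or control plasmid array 4, at an adjusted p of 0.0605, 0.0883 and 0.059. That of Gabarapl1 was lost without mobile array 2 or control plasmid array 1 or 3, at an adjusted p of up to 0.0926. That of Bnip3l, whose arrays overlapped between the groups, was lost without mobile array 2 or 3 or control plasmid array 2 or 4, at an adjusted p of up to 0.102.

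The rest of the pathway was read from 5 lists of 115 other genes, 103 of them with a probe, using the brightest probe of each gene. The p53-linked list also holds Cdkn1a and Mdm2, which serve as p53 controls. With the p53 plasmid the lysosome list went against the members. Its counts, and those of the other lists in this comparison, stand beside 29.7% of all probes that rose and 28.4% that fell. Of 23 lysosome genes tested, 18 rose and 3 fell, with a median log2 difference of 0.72. Among the risen were the proteases Ctsh (1.47 ± 0.06 SE), Lgmn (1.26 ± 0.05) and Ctsa (0.98 ± 0.03), the enzyme Gusb (1.34 ± 0.07) and the proton pump subunits Atp6v1a (1.18 ± 0.07) and Atp6v1b2 (0.92 ± 0.03). Gaa, the glycogen-degrading glucosidase, fell (-0.89 ± 0.07 SE), as did Scarb2 and Mcoln1. Of 10 macrophage markers tested, 9 rose in the same comparison and 0 fell, at a median of 1.11, led by Lyz2 (1.45 ± 0.11 SE). Of 8 muscle markers, 0 rose and 2 fell, Ckm (-0.25 ± 0.08 SE) and Myh4 (-0.31 ± 0.05 SE). Of 3 endothelial markers tested, 3 fell, Pecam1 (-0.35 ± 0.06 SE), Cdh5 (-0.23 ± 0.04) and Tek (-0.23 ± 0.07). Their list's summed linear signal was 2776 to 2983 with the p53 plasmid, below the 3301 to 3522 of the control plasmid. Of 4 neutrophil markers 3 rose, Csf3r (0.55 ± 0.08), S100a9 (0.70 ± 0.20) and Retnlg (0.21), with sums of 2682 to 4955 with the p53 plasmid and 2200.1 to 2759.9 with the control plasmid. Of 5 fibroblast markers 2 rose, Pdgfra (0.53 ± 0.13) and Col3a1 (0.52 ± 0.14), with sums of 37215 to 45626 with the p53 plasmid and 34389 to 38451 with the control plasmid. Of 3 markers of regenerating fibres 1 rose, Myod1 (0.69 ± 0.17), and the 1 adipocyte marker tested, Adipoq, did not pass (-0.36, adjusted p = 0.0673 by limma). The part of other cells in these results, and in the fall of the members, was not tested.

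Of 27 further genes of autophagosome formation, 8 rose and 10 fell with the p53 plasmid, with a median of -0.08. The 10 falls became 6 when all 17 arrays set the spread. In that fit 3537 of 17107 probes fell over all, against 4376 of 15426. Falls included Ulk2, the paralogue of Ulk1 (-0.62 ± 0.07 SE), Wipi1, which reads the lipid mark on the new membrane (-0.60 ± 0.06), and Atg101 of the Ulk1 complex (-0.37 ± 0.07). Rises included Vamp8 (0.63 ± 0.07), a fusion protein, Vmp1 (0.51 ± 0.05) and Gabarap (0.28 ± 0.05), a relative of Gabarapl1. Of 13 further cargo and mitophagy receptors, 3 rose and 7 fell. Pink1, the kinase that marks damaged mitochondria, fell most (-1.23 ± 0.17 SE, adjusted p = 0.000345 by limma), with 11.22 ± 0.38 with the p53 plasmid and 12.45 ± 0.07 with the control plasmid (SD, n = 4 each). Bcl2l13 (-0.48 ± 0.05 SE) and Calcoco1 (-0.41 ± 0.05 SE) fell too. The 3 that rose did so by at most 0.20, and the count was 1 without control plasmid array 1 or 3 or p53 plasmid array 1 or 2. All probes gave 4157 to 4349 rises in those fits, against 4584 in the main fit.

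Of 22 regulators tested, 4 rose and 11 fell with the p53 plasmid. Rragd (-1.08 ± 0.09 SE) and Prkaa2 (-0.99 ± 0.13), a catalytic subunit of the energy sensor AMPK, fell most, and Tsc2 (-0.46 ± 0.04) and Mtor (-0.38 ± 0.04) fell as well. Rragc, a GTPase of the same kind as Rragd, rose (0.80 ± 0.05). The 11 falls became 7 when all 17 arrays set the spread, with 3537 falls over all probes against 4376 in the main fit. Of 12 p53-linked genes, with the controls Cdkn1a and Mdm2 among them, 6 rose and 2 fell. Among the known p53 targets, Cdkn1a (1.02 ± 0.18 SE), Plk2 (0.75 ± 0.09), Sesn1 (0.51 ± 0.11) and Dram1, a lysosomal protein (0.48 ± 0.09), rose. So did Prkab1 (0.37 ± 0.05) and Sesn2 (0.075 ± 0.03). Tigar, also a p53 target (-0.80 ± 0.08), and Trp53inp2, which aids LC3 recruitment (-1.10 ± 0.16, adjusted p = 0.000548 by limma), fell. The targets Mdm2 (0.16 ± 0.07, adjusted p = 0.0667 by limma), Dram2, Trp53inp1 and Ddit4 did not pass.

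After immobilization of control muscle, 6 of 23 lysosome genes rose and 0 fell (13 and 0 at an unadjusted p under 0.05, limma), with a median log2 difference of 0.46. The counts of this and the other lists stand beside 4.08% higher and 6.06% lower of all probes, or 11.9% and 12.6% at an unadjusted p under 0.05. Among them were Atp6v1a (1.14 ± 0.16 SE), Cd63 (0.83 ± 0.11) and Atp6v1h (0.78 ± 0.05). The count was 10 without both immobile arrays numbered 3. In that setting 930 of 16296 probes rose over all, against 655 of 16036. Of 27 genes of autophagosome formation 1 rose, Plekhm1, an adaptor for fusion with lysosomes (0.41 ± 0.05), and 4 fell. Atg101 (-0.58 ± 0.05 SE), Nrbf2 (-0.49 ± 0.08) and Atg10 (-0.30 ± 0.04) were among the 4, and the count of rises was 2 without control immobile array 3. Without that array 612 of 16528 probes rose over all. Of 13 receptors 0 rose and 0 fell, with 1 and 1 at an unadjusted p under 0.05 by limma. Of 23 regulators 2 rose, Flcn (0.55 ± 0.09) and Rragc (0.38 ± 0.06), and 1 fell, Ddit3 (-0.70 ± 0.12). Of 12 p53-linked genes 3 rose, Cdkn1a (1.52 ± 0.17), Plk2 (0.48 ± 0.06) and Dram1 (0.42 ± 0.09), and Tigar fell (-0.90 ± 0.14). Dram1 lost its call without mobile array 1, 2 or 3 or control immobile array 1 or 2, at an adjusted p of up to 0.0933. Of 9 macrophage markers 1 rose, Mrc1 (1.29 ± 0.21), with 8 higher and 0 lower at an unadjusted p under 0.05, and their part was not tested. Between p53 mKO and control immobile muscle, 0 genes of these 5 lists passed by limma. At an unadjusted p under 0.05, 1 autophagosome gene and 1 receptor were higher, with 1 lysosome gene and 1 p53-linked gene lower. Of all probes, 1.89% were higher and 1.06% lower. The p53-linked gene was the control Cdkn1a (-0.55 ± 0.17 SE, unadjusted p = 0.0129 by limma), whose groups did not overlap. The other control, Mdm2, differed by -0.08 ± 0.18 SE, and its groups overlapped.

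**Figure D3:**
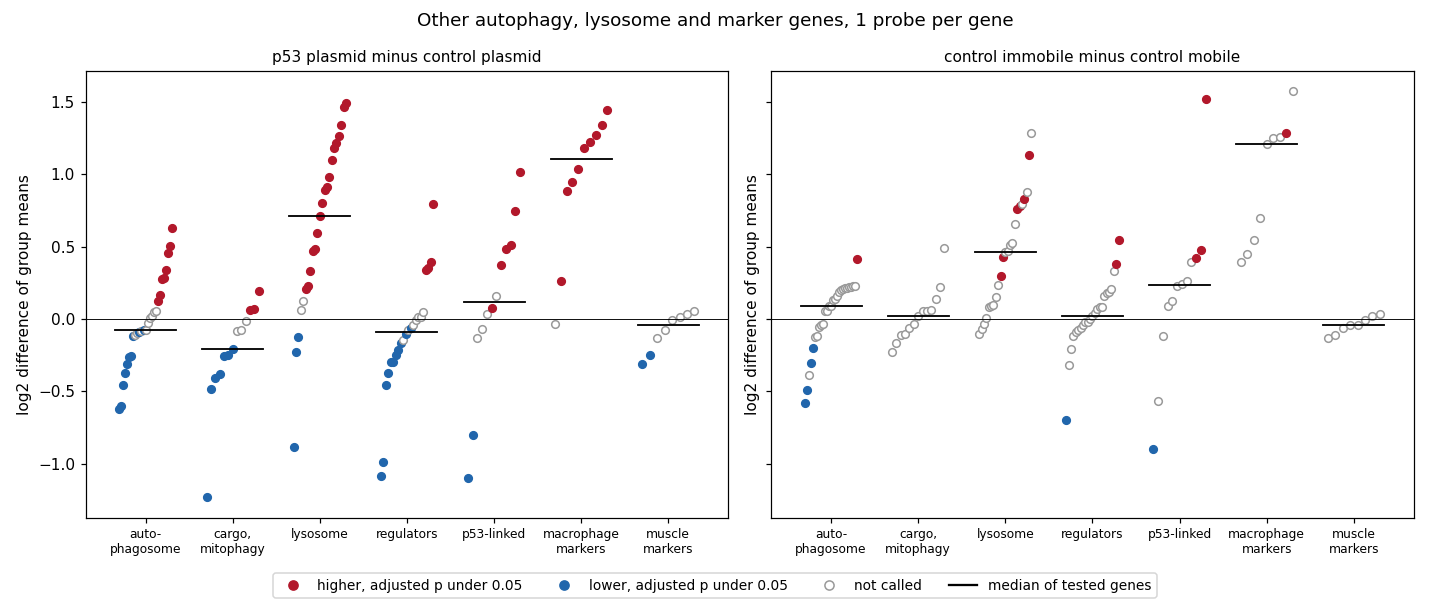
Log2 differences of the other autophagy, lysosome and marker genes, 1 point per gene tested and a line at each list's median, for the p53 plasmid (left) and immobilization of control muscle (right). Lysosome genes and macrophage markers sit mostly above 0 in both, with list medians of 0.72 and 1.11 for the p53 plasmid, while the other lists spread to both sides.

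The genes most like Ulk1 over the 17 arrays were looked for among 10050 genes that are no member, as a description. Pearson's r with ILMN_1228475 was 0.993 for Dhdh, 0.989 for Mtss2, 0.987 for Mapkapk3, 0.987 for Osgep and 0.987 for Zhx2. The 17 points share the 5 groups and the high immobile arrays numbered 3, which all 5 genes show. Dhdh, a dihydrodiol dehydrogenase, averaged 9.15 ± 0.12 with the p53 plasmid and 9.93 ± 0.16 with the control plasmid (SD, n = 4 each). It averaged 11.17 ± 0.67 in p53 mKO immobile, 11.17 ± 0.71 in control immobile and 10.55 ± 0.21 in control mobile muscle (SD, n = 3 each). Mapkapk3, a stress-activated kinase, averaged 9.81 ± 0.13 with the p53 plasmid and 10.21 ± 0.10 with the control plasmid (SD, n = 4 each).

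**Figure D4:**
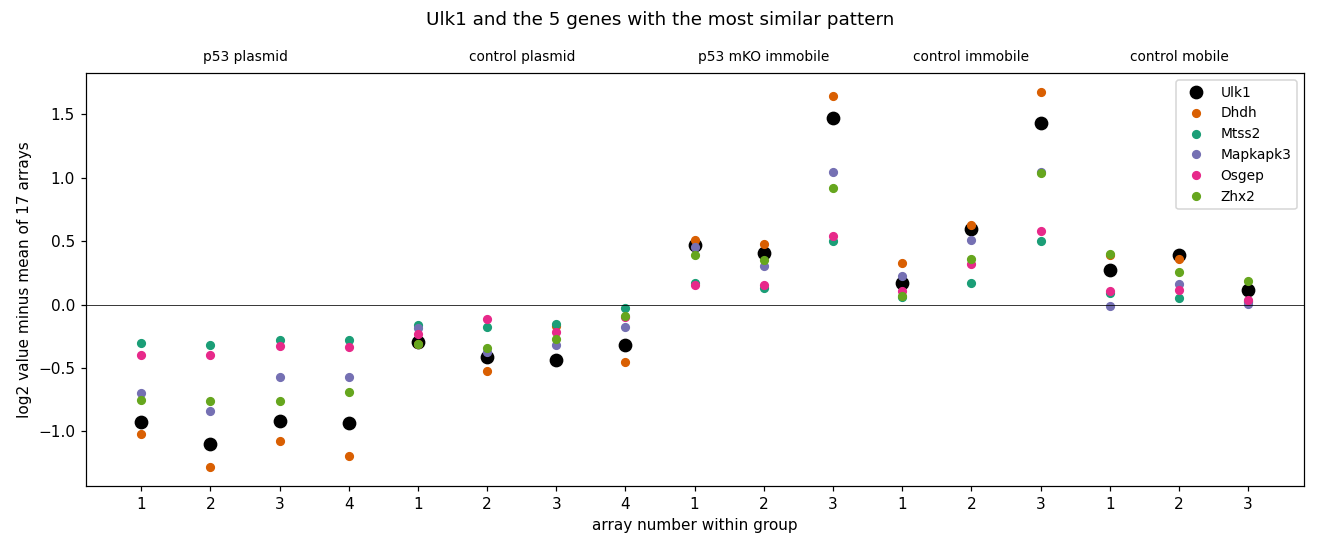
Log2 values minus the mean of the 17 arrays for Ulk1 (probe ILMN_1228475, large black points) and the 5 genes of highest correlation, by group and array number. All 6 genes lie below 0 on the p53 plasmid arrays and highest on the immobile arrays numbered 3.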

How the data were processed

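The deposited values are a table of the authors' own, log2 intensities per probe (base not stated, taken as log2). The array medians were near equal, but they lie close to the floor, so they do not show whether the arrays were normalized to each other. The normalization, background correction, detection values and genome build are not given in the sources used here. TRIzol extraction, column cleaning with DNase, amplification and biotin labelling preceded hybridization, per the labels' protocols. Gene names came from GEO's platform annotation, which named 23978 probes with 1 gene, 0 with several and 1719 with none, and 99.9% of the annotated probes were matched to the RefSeq gene table by identifier.

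Probes above their array's 40th percentile (8.4 to 8.41) on a number of arrays no smaller than that of the fit's smallest group were tested with limma 3.58.1 in R 4.3.3 (lmFit, eBayes, two-sided, Benjamini-Hochberg over all probes, threshold 0.05). The fit used 9 arrays for immobilization, 8 for transfection and 17 across the experiments. It was tested on simulated data. The number of arrays limits the precision. Every member probe is named. For the wider lists, called genes were named from the 6 with the smallest p per list and direction, and the genes like Ulk1 were the 5 of highest correlation. Members and lists were chosen with earlier results of these data known. Same-numbered arrays of p53 mKO and control immobile muscle deviated together (correlations 0.628, 0.543 and 0.844), so the numbers were taken to pair them. Arrays 1 and 2 also correlated across numbers, at 0.3235 and 0.2216. The origin of the pairing is the data, as the labels do not give it. Alternatives were 104 further fits.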

Additional observations from a re-analysis of the deposited data

Results flagged for a closer look

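In 4 of 26 groups of 4 arrays, the gap between 1 array and its nearest neighbour was larger than Dixon's 95% critical value, which chance passes in about 1 in 20 groups. With the p53 plasmid, array 2 was the lowest for both Ulk1 probes, at 9.21 on ILMN_1228475 (gap over range 0.8889) and 8.91 on ILMN_2506115 (0.8889), and for Map1lc3a on ILMN_2686183, at 8.60 (0.9375). Without that array these 3 differences were -0.56, -0.47 and -0.46 on the log2 scale, with adjusted p = 3.71e-05, 3.45e-05 and 0.000173 by limma. With the control plasmid, array 4 was the highest for Sqstm1, at 14.21 (0.8333), and without it Sqstm1 fell by 0.51 on the log2 scale (adjusted p = 0.00601 by limma).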

How the results depend on the processing

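Of 1309 member differences recomputed under the alternatives, 1226 kept their direction and side of the threshold or were uncalled in both, 52 lost a call and 31 gained one. No called difference changed sign. With the p53 plasmid, the 8 falls ran from 6 to 9 over 17 settings, and the 1 rise became 2 with background subtraction, an intensity trend or array weights, where Ctsl was added, with a leave-one-out range of 1 to 2. Falls over all probes ran from 2969 of 10398 with 1 probe per gene to 4577 of 15426 with background subtraction. Over all probes 4808, 4807 and 4571 rose with background subtraction, the trend and array weights, against 4584 in the main fit. With 1 array left out 4157 to 4410 rose. For immobilized control muscle, the 2 rises became 1 with no filter, 4 with array weights, 1 with only the 2 groups compared and 0 with the replicate block, and 0 to 2 with 1 array left out. Among all probes the rises were 549, 1684, 463 and 99 in those settings, in that order, against 655 in the main fit. They were 248 to 745 with 1 array left out. In p53 mKO immobile against control mobile muscle, the 3 rises became 1 with no filter and 1 to 3 with 1 array left out. The rises over all probes were 478 with no filter and 169 to 328 with 1 array left out, against 561 in the main fit. For the control plasmid against control mobile muscle, the 4 falls became 7 with array weights and 2 to 4 with 1 array left out, and the 1 rise 0 to 1. All probes gave 4785 falls with array weights and 2574 to 3053 with 1 array left out, against 3446. Their rises were 1979 to 2260 with 1 array left out, against 2451. For the difference of the 2 effects, the 5 calls became 8 with array weights and ran from 4 to 7 with 1 array left out or, added after seeing the data, without both immobile arrays numbered 3. Among all probes, 2535 were higher with array weights and 1176 to 2213 in the latter settings, against 1581 in the main fit. The cause of these shifts was not tested.

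Where the numbers were not taken to pair arrays, the replicate block gave fewer calls than the same arrays without it. In the immobilization experiment it was fitted to only the 2 groups compared. For immobilization it gave 99 rises and 303 falls over all probes, against 463 and 741 for those groups without it. The main fit gave 655 and 971. In p53 mKO immobile against control mobile muscle it gave 568 and 642, against 1066 and 999 without it. There the main fit gave 561 and 802. For the p53 plasmid it gave 4365 and 4183, against 4584 and 4376. Same-numbered deviations correlated at 0.087, 0.049 and 0.187 for immobilization. The block lost Gabarapl1 in p53 mKO immobile against control mobile muscle (adjusted p = 0.0635) and changed no other member's call beside those given above. For immobilization, lysosome rises ran from 3 with the block to 11 with array weights, and falls in autophagosome formation from 4 to 1 with the block. Array weights gave 1684 rises over all probes. Atg4b was called lower with the p53 plasmid under quantile normalization (adjusted p = 0.0345). Signal over background limits Bnip3, Atg4b and Ctsl.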
